A study of Mus musculus with 18 samples.

Results

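Transcripts of 8 genes for making haem and adult haemoglobin were followed in mouse liver: Alas1, Alas2, Alad and Fech, which encode enzymes of haem synthesis, the alpha globin genes Hba-a1 and Hba-a2, and the beta globin genes Hbb-bs and Hbb-bt. They were taken by symbol from a table of 58126 genes, where each symbol stands in 1 row. All 8 passed the filter on low values, with 6.01 TPM or more in every library. Levels are in TPM, a unit scaled to both transcript length and library total, so that levels of different genes can be set side by side.

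The study asked how loss of Ftcd in the liver bears on gene expression during liver tumour formation in C57BL/6 mice. Ftcd encodes an enzyme of histidine breakdown. The 18 libraries fall into 5 groups: 3 of untreated wild-type liver (untreated WT), 3 of untreated liver-specific Ftcd knockout liver (untreated LKO), 6 of nontumour liver from wild-type littermates given diethylnitrosamine (DEN WT nontumour), 3 of nontumour liver from knockouts given DEN (DEN LKO nontumour) and 3 of tumours from knockouts given DEN (DEN LKO tumour). DEN, a liver carcinogen activated by hepatocyte enzymes, was given by injection into the abdomen (20 mg/kg, postnatal day 14), 12 months before harvest. Untreated mice were 12 months old at harvest. The labels name neither the Cre driver of the knockout nor the animal each library came from, so the p-values measure the spread between these libraries, which may in part be technical, and DEN LKO nontumour and tumour pieces may come from the same mice.

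Haem is built in a chain of enzymatic steps shared between mitochondria and cytosol. The first, which joins glycine to succinyl-CoA, is catalysed by ALAS1 in nearly all tissues and by ALAS2 in developing red cells. In hepatocytes ALAS1 sets the pace of the pathway, much of its haem goes into cytochromes P450, and haem itself lowers ALAS1. In red cell precursors ALAS2 supplies the haem that is joined to alpha and beta globin. Liver pieces that are not flushed hold blood, and immature red cells keep globin mRNA after the nucleus is lost. In bulk tissue, fewer cells of a type and less RNA per cell cannot be told apart.

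Some properties of the libraries run alongside the groups. By Xist and Y-linked transcripts, 11 libraries were XX and 7 were XY. All 9 libraries labelled WT were XX, all 3 untreated LKO libraries were XY, and the DEN LKO nontumour and tumour groups each held 1 XX and 2 XY libraries. Ftcd was between 0.1 and 3.16 TPM in the 9 LKO libraries and between 61.2 and 106 TPM in 6 libraries labelled WT. In the other 3 libraries labelled WT (untreated WT 3 and DEN WT nontumour 1 and 2) it was between 1.77 and 2.5 TPM, against the label. The 13 mitochondrially encoded mRNAs took from 4.2% to 38.3% of all TPM, with group medians of 9.73%, 20.3%, 6.3%, 18.7% and 16.1% in the order given above. Where a result rests on the low-Ftcd libraries, its value in their absence is given too. Hepatocyte genes such as Alb (6758 to 59439 TPM) were high in every library.

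Alas2, the ALAS of red cell precursors (chrX:150547375-150570638, plus strand, mm10), was the 1 gene of the 8 that passed the test between groups. It was 164, 94.9 and 124 TPM in the 3 untreated LKO libraries, and 11.4, 13.4 and 11.8 TPM in the 3 untreated WT libraries. Every untreated LKO library was above every untreated WT library, with no overlap. On the log2(TPM + 1) scale the difference was 3.25 ± 0.59 (SE), a 9.55-fold higher level (limma, adjusted p = 0.0137 over 13872 tested genes). Of all tested genes, 60 passed here, which is 0.433%, against 1 of 8 members. The call was not firm. Leaving out any 1 of 5 of the 6 libraries (each untreated WT library, and untreated LKO 1 or 3) gave a difference of 3.06 to 3.32 that missed the threshold (limma, adjusted p from 0.0548 to 0.0953). With all 3 low-Ftcd libraries left out it was 3.24 (limma, adjusted p = 0.0621). The median of all tested genes was -0.33 here, and with median-ratio scaling, which brought it to 0.01, the difference in Alas2 was 3.75 (limma, adjusted p = 0.00327). The genes whose libraries did not overlap in this comparison were 2 of 8, Alas2 (higher) and Alas1 (lower), against 11.4% of all tested genes.

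The high level of Alas2 was shared by only 1 of the other knockout libraries. The 3 DEN LKO nontumour libraries had 9.92, 92.9 and 10.1 TPM, so that 1 library stood with the untreated knockouts and the others with the wild types. The 3 tumours had 16.8, 18.6 and 19.4 TPM. In DEN WT nontumour liver Alas2 ran from 12.0 through a median of 17.9 to 20.9 TPM. Ordered by median, untreated LKO (124) was followed by the tumours (18.6), DEN WT nontumour (17.9), untreated WT (11.8) and DEN LKO nontumour (10.1). Of the neighbours in this order, only the first pair did not overlap.

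**Figure D1:**
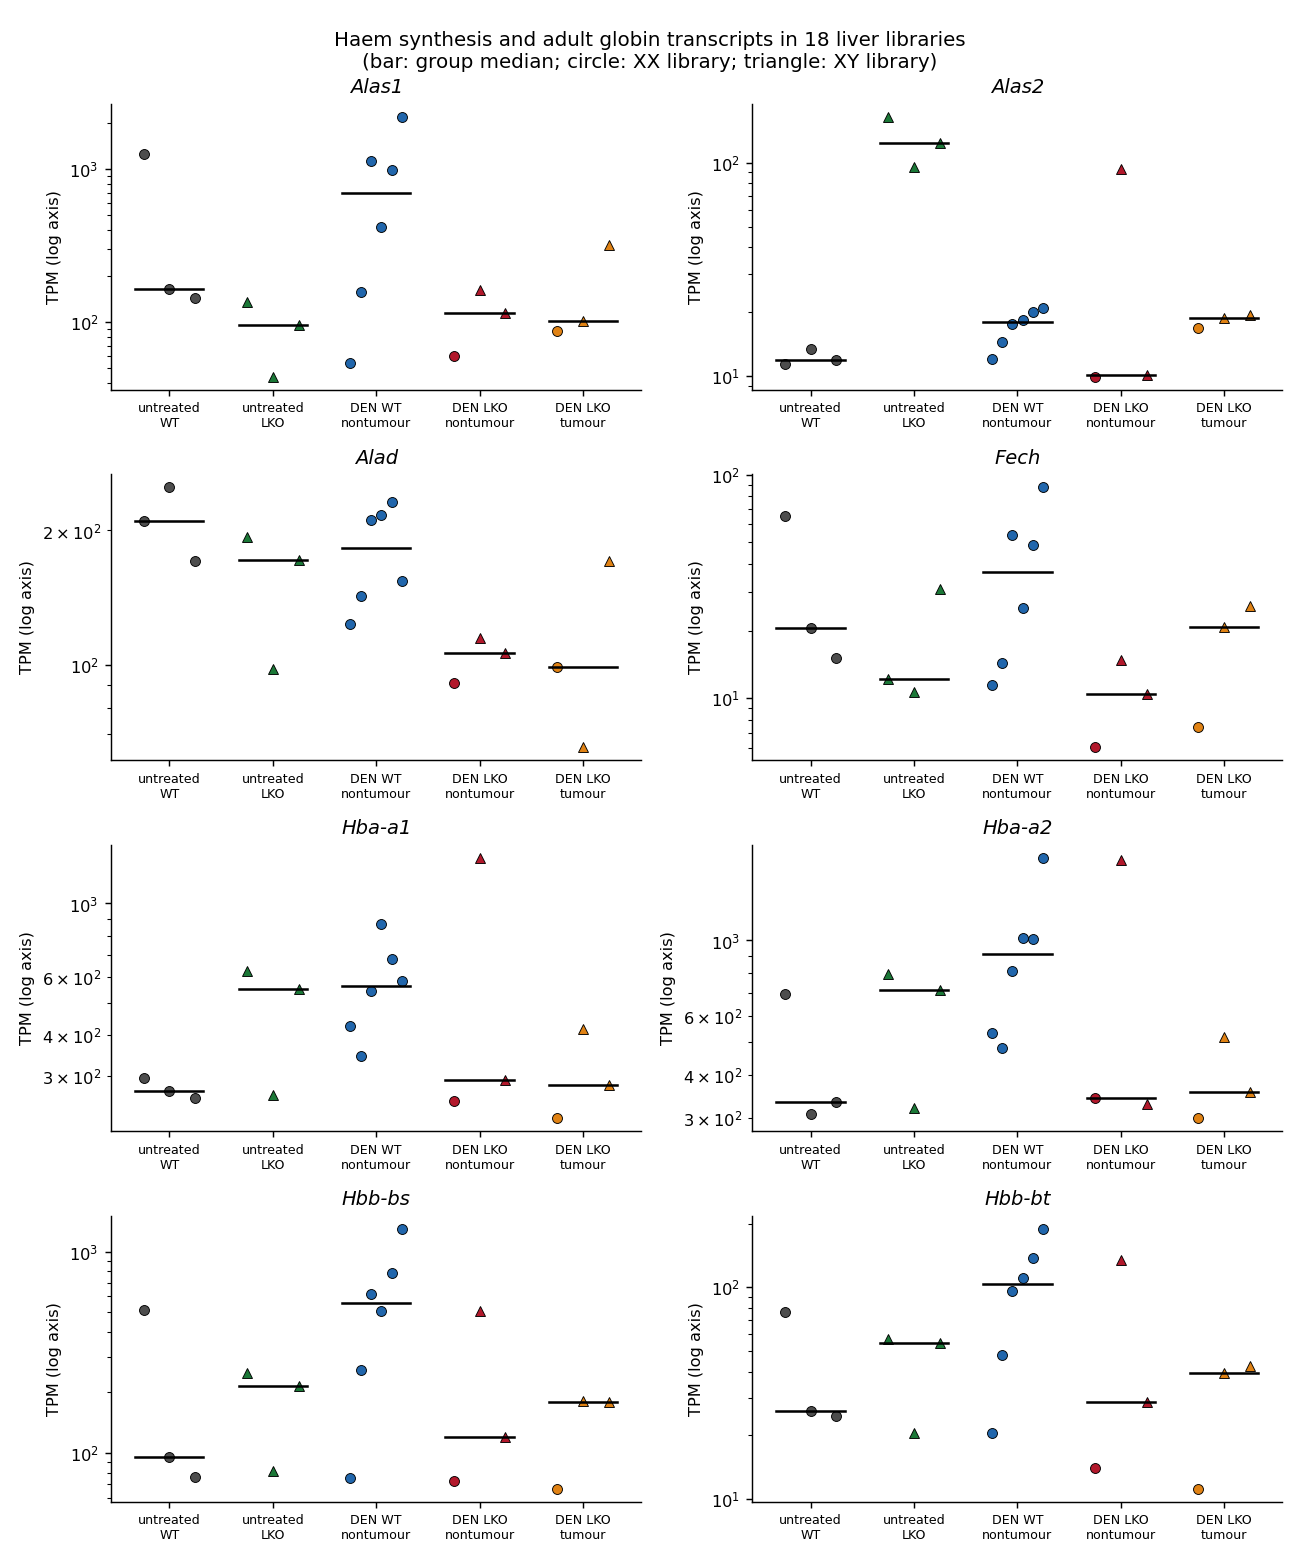
Level of each of the 8 genes in TPM (log axis) in each of 18 liver libraries, by group, with the group median as a bar, XX libraries as circles and XY libraries as triangles. Alas2 lies between 94.9 and 164 TPM in untreated LKO liver and between 11.4 and 13.4 TPM in untreated WT liver, and 1 DEN LKO nontumour library stands at 92.9 TPM.

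Across all 18 libraries Alas2 thus fell into 4 high values, from 92.9 to 164 TPM, and 14 low ones, from 9.92 to 20.9 TPM. The lowest of the high values was 4.44 times the highest of the low ones, while the low ones spanned 2.11-fold among themselves. All 4 high libraries were XY and LKO. The other 3 XY libraries, 1 DEN LKO nontumour and 2 tumours, lay between 10.1 and 19.4 TPM, within the range of the 11 XX libraries (9.92 to 20.9 TPM). No untreated knockout was XX and no wild type was XY, so genotype and sex cannot be told apart in the untreated comparison. With a term for XX or XY in the fit, which rests on the 2 DEN-treated knockout groups, the untreated difference was 2.39 with an adjusted p of 0.167 (limma).

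Against untreated LKO liver, Alas2 in DEN LKO nontumour liver was lower in 3 of 3 libraries, 92.9 TPM being just under the lowest untreated value. The difference was -2.48 ± 0.59 and did not pass (limma, adjusted p = 0.232). None of the 8 genes passed, against 0.0649% of tested genes (9 genes). Alas2 was the 1 of 8 genes without overlap, against 12.3% of all. Without DEN LKO nontumour 2, the library at 92.9 TPM, the difference was -3.51 and passed (limma, adjusted p = 0.000211), 1 of 8 against 0.144% of tested genes. The difference between the knockout effects with and without DEN was -2.92 ± 0.78 for Alas2 (limma, adjusted p = 1), with 0 of 8 genes and 0% of tested genes past the threshold and 332 tested genes at an unadjusted p under 0.05. Without DEN LKO nontumour 2 this interaction was -3.96 (limma, adjusted p = 0.00105), 1 of 8 against 0.0721%. That single library decides both calls.

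In the other comparisons Alas2 differed by less than its standard error. The log2 difference was 0.33 ± 0.51 in DEN LKO nontumour against DEN WT nontumour liver, 0.11 ± 0.51 in tumours against DEN WT nontumour liver, -0.22 ± 0.59 in tumours against DEN LKO nontumour liver and 0.44 ± 0.51 in DEN WT nontumour against untreated WT liver.

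The genes most like Alas2 across the 18 libraries, by Pearson's r of log2(TPM + 1), were Hsd3b5 (0.965), Gm12718 (0.951), Slc22a28 (0.939), Mup-ps5 (0.937) and Gtpbp4-ps1 (0.933). None of them is a member of the haem pathway. Hsd3b5, a steroid dehydrogenase known for its high level in male mouse liver, was between 29.4 and 51.5 TPM in the 4 libraries high in Alas2 and between 0.05 and 1.42 TPM in the other 14. Cyp4a12a, a P450 of male mouse liver, was chosen after its values were seen: r was 0.93, with 69.2 to 161 TPM in the 4 libraries and 0.05 to 10.7 TPM in the 14. Slco1a1, a male-biased organic anion transporter chosen in the same way, had r = 0.913, with 15.3 to 35.1 TPM and 0.01 to 2.78 TPM. Within the 14 low libraries r with Alas2 was 0.204 for Hsd3b5, 0.263 for Cyp4a12a and -0.203 for Slco1a1. The 3 XY libraries low in Alas2 were among these 14. Hsd3b5, Cyp4a12a and Slco1a1 were chosen by likeness to Alas2 or after their values were seen. Their low values in the 14 libraries therefore follow from the choice. Among the 14, Cyp4a12a was highest in DEN LKO tumour 3, an XY library, at 10.7 TPM.

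**Figure D2:**
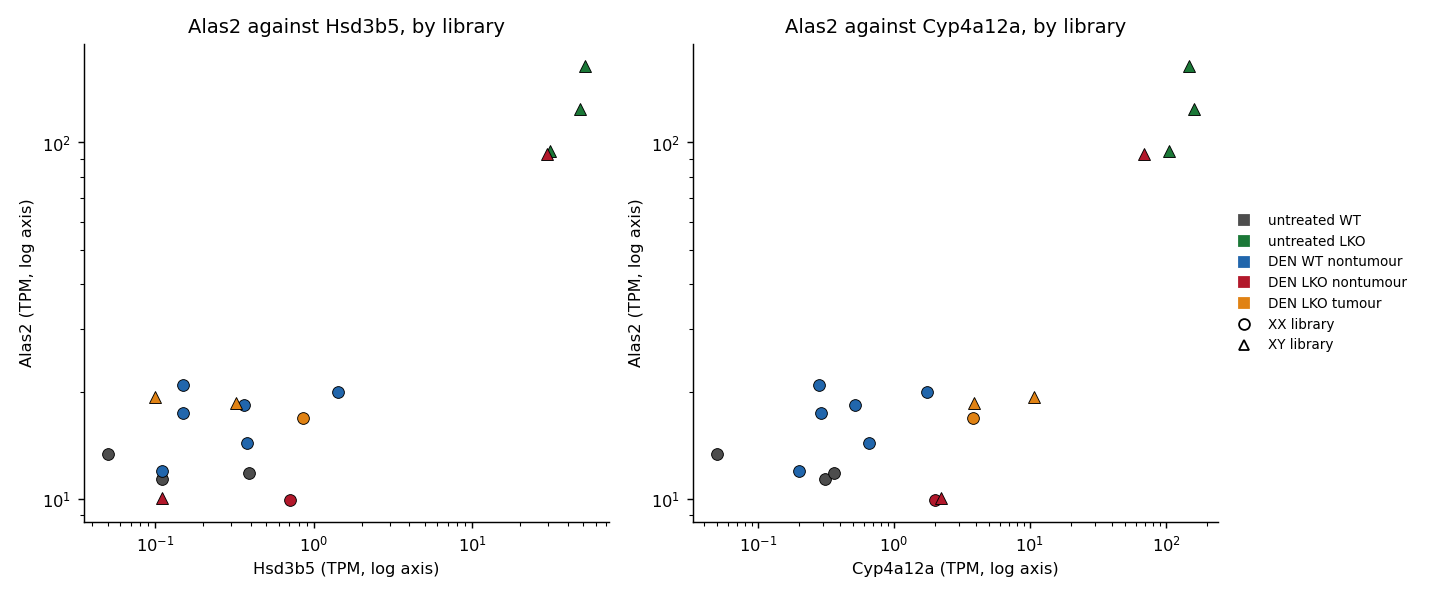
Alas2 against Hsd3b5 (left) and Cyp4a12a (right), each in TPM on log axes, 1 point per library, coloured by group, with XX libraries as circles and XY libraries as triangles. The 4 libraries with Alas2 at 92.9 TPM or more stand apart at the top right, and 3 XY libraries lie with the XX libraries.

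Alas1, the first and rate-setting enzyme of hepatic haem synthesis (chr9:106233455-106248654, minus strand, mm10), varied most of the 4 enzymes. It was 1249, 164 and 144 TPM in untreated WT liver and 136, 44.0 and 95.3 TPM in untreated LKO liver. All 3 knockout libraries were below all 3 wild-type libraries, but 1 wild-type library lay far above the other two. The log2 difference was -1.88 ± 1.11 (limma, adjusted p = 0.831). In DEN WT nontumour liver the level ran from 54.2 through a median of 698 to 2192 TPM, and the 3 libraries of DEN LKO nontumour liver had 60.2, 162 and 114 TPM. The 3 tumours had 87.6, 102 and 319 TPM. In DEN-treated mice the groups overlapped, through the DEN WT nontumour libraries 1 and 2 at 54.2 and 158 TPM.

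Against DEN WT nontumour liver, Alas1 was -2.12 ± 0.96 in DEN LKO nontumour liver (limma, adjusted p = 0.373) and -1.67 ± 0.96 in tumours (limma, adjusted p = 0.59). None of the 8 genes passed in either comparison, against 0.0577% of tested genes (8 genes) in the first and 0.497% (69 genes) in the second. Without the 3 low-Ftcd libraries labelled WT, Alas1 fell by 3.26 in DEN LKO nontumour liver (limma, adjusted p = 0.027) and by 2.81 in tumours (limma, adjusted p = 0.0496). In the first of these fits 2 of 8 genes passed, Alas1 and Fech, against 8.35% of all tested genes, and in the second 1 of 8 passed, against 3.03%. The libraries labelled WT that were kept had mitochondrially encoded shares between 4.2% and 9.73%, and the 6 libraries of DEN LKO nontumour liver and tumours between 10.4% and 36.2%. The part of that share in the difference was not tested in this fit.

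Alas1 went with the mitochondrially encoded share across libraries. Over 18 libraries r was -0.879 and Spearman's rho -0.87 (permutation test, adjusted p = 2.75e-05 for r and 7.33e-05 for rho, over 11 relations). Without the 2 libraries farthest from the median of Alas1 r was -0.876, and within the 6 DEN WT nontumour libraries it was -0.777. The 4 libraries highest in Alas1, at 980.0 to 2192 TPM, had shares of 4.2% to 6.47%, whereas DEN WT nontumour 2 had 158 TPM at a share of 6.13%. Both are parts of the same total. The share left between 61.7% and 95.8% of the total to all other genes, a 1.55-fold range. Alas1 ranged 49.8-fold. How much of the relation comes from the shared total was not tested. A raw p of 1e-05 was the smallest that the 100000 resamples could give.

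The genes most like Alas1 were Ddx28 (r = 0.978), a mitochondrial RNA helicase, Dync1h1 (0.97), the dynein heavy chain, Ces2g (0.969), a carboxylesterase, Hadha (0.968), the alpha subunit of the mitochondrial trifunctional protein of fatty acid oxidation, and Zfp385b (0.965), a zinc finger protein. Hadha, for example, ranged from 12.4 to 152 TPM.

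Alad, which joins pairs of aminolevulinate molecules into porphobilinogen in the cytosol (chr4:62509169-62519918, minus strand, mm10), was the steadiest of the 4 enzymes. It was 209, 249.8 and 171 TPM in untreated WT liver, 193, 98.1 and 172 TPM in untreated LKO liver, 123 to 232 TPM (median 182) in DEN WT nontumour liver, 91.0, 115 and 106 TPM in DEN LKO nontumour liver and 99.0, 65.4 and 171 TPM in tumours. Every DEN LKO nontumour library was below every DEN WT nontumour library, which made Alad the 1 of 8 genes without overlap there, against 4.06% of all tested genes. The log2 difference of -0.75 ± 0.37 did not pass (limma, adjusted p = 0.39). In tumours it was also -0.75 ± 0.37 against DEN WT nontumour liver (limma, adjusted p = 0.495), with overlap.

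Fech, ferrochelatase, which inserts iron into protoporphyrin as the last step (chr18:64452914-64490251, minus strand, mm10), was 65.4, 20.7 and 15.2 TPM in untreated WT liver and 12.1, 10.6 and 30.9 TPM in untreated LKO liver. It ran from 11.5 through a median of 36.8 to 87.9 TPM in DEN WT nontumour liver, and was 6.01, 14.7 and 10.5 TPM in DEN LKO nontumour liver and 7.45, 20.8 and 25.9 TPM in tumours. The groups overlapped in each of the 6 comparisons. Against DEN WT nontumour liver the difference was -1.59 ± 0.63 in DEN LKO nontumour liver (limma, unadjusted p = 0.0218, adjusted p = 0.351). Without the 3 low-Ftcd libraries labelled WT it was -2.21 (limma, adjusted p = 0.0356), beside the same mitochondrial shares as for Alas1. Fech and Alas1 went together over the 18 libraries, with r = 0.901 and rho = 0.816 (permutation test, adjusted p = 2.75e-05 and 0.000302), and r = 0.98 within the 6 DEN WT nontumour libraries. This pair and that of Alas1 with Alad (r = 0.612, rho = 0.68, permutation test, adjusted p = 0.0139 and 0.00493) were added after the values were seen. Alad with Fech had r = 0.583 and rho = 0.628 (permutation test, adjusted p = 0.0188 and 0.0104).

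Of the enzymes for the steps between, 4 are described: Uros, which closes the ring, and Urod, Cpox and Ppox, which trim and oxidise it. None of the 4 passed in any of the 6 comparisons (limma), beside at most 0.497% of all tested genes. In untreated LKO against untreated WT liver the log2 differences were -0.66 ± 0.44 for Urod, -0.63 ± 0.43 for Ppox, -0.49 ± 0.62 for Uros and -0.11 ± 0.79 for Cpox, beside a median of -0.33 for all tested genes (limma, adjusted p from 0.831 to 0.97). In DEN LKO nontumour against DEN WT nontumour liver they were -0.66 ± 0.38, -0.57 ± 0.37, -0.82 ± 0.54 and -0.42 ± 0.68 in the same order, beside -0.19 for all tested genes (limma, adjusted p from 0.425 to 0.76). Urod was the most abundant of the 4 at 23.3 to 90.4 TPM, followed by Cpox at 6.51 to 78.6 TPM, Uros at 2.21 to 18.8 TPM and Ppox at 2.14 to 9.28 TPM. In tumours, Urod differed from DEN WT nontumour liver by -0.91 ± 0.38 (limma, unadjusted p = 0.0272, adjusted p = 0.368).

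Genes around the pathway varied widely between libraries and did not pass between groups. None of 14 tested genes of mitochondrial transport for haem synthesis passed in any comparison, among them Slc25a39, a mitochondrial glutathione carrier (149 to 374 TPM), Iscu, the scaffold of iron-sulphur clusters (30.7 to 279 TPM), Tmem14c, a mitochondrial membrane protein needed for porphyrin import (19.5 to 201 TPM), and Tspo, a porphyrin-binding protein of the outer membrane (16.0 to 372 TPM). None of 13 tested genes of haem breakdown and carriage passed, the most abundant being Fabp1, a fatty acid and haem binding protein (1431 to 15668 TPM), Hp and Hpx, the plasma carriers haptoglobin (1335 to 9257 TPM) and hemopexin (855 to 7209 TPM), and Pgrmc1, a haem-binding membrane protein (101 to 826 TPM). None of 15 tested genes from a list drawn up around the control of hepatic Alas1 passed. The most abundant included Pck1 and Igfbp1, listed as fasting-responsive genes (200.1 to 2768 TPM and 0.22 to 449 TPM). Hnf4a, a hepatocyte transcription factor (29.6 to 188 TPM), and Nr1i3, the drug receptor CAR (19.1 to 103 TPM), were also among them.

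Of 18 cytochromes and other haem-carrying enzymes of hepatocytes, 1 passed in 1 comparison: Cyp4a14, a fatty acid hydroxylase, fell by 4.82 in tumours against DEN WT nontumour liver (limma, SE 0.95, adjusted p = 0.0268), from 27.4 to 364 TPM to 0.09 to 13.3 TPM. In that comparison 0.497% of all tested genes passed. In sign, 15 of the 18 were lower there, with a median of -1.56 against 0.04 for all tested genes. With median-ratio scaling that median was -1.48. Cyp4a14 was also low in knockout liver outside tumours. It was 10.9, 3.01 and 3.06 TPM in DEN LKO nontumour liver and 2.5, 0.16 and 18.4 TPM in untreated LKO liver. In DEN LKO nontumour against DEN WT nontumour liver 15 of the 18 were lower in sign (median -1.22 beside -0.19), and none passed. In tumours against DEN LKO nontumour liver 9 of the 18 were lower (median -0.07 beside 0.23). In untreated knockouts 15 of 18 were lower in sign (13 of 18 with median-ratio scaling), with a median of -1.15 against -0.33, and none passed. Of 15 hepatocyte markers, 12 were lower in sign in tumours against DEN WT nontumour liver. Of these 1 passed, Hpd, a tyrosine breakdown enzyme, which fell by 2.24 (limma, adjusted p = 0.0452). The part of hepatocyte content in these values was not tested.

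By median over the 18 libraries, Hba-a2 (526.3 TPM), Hba-a1 (382 TPM) and Hbb-bs (199 TPM) were the most abundant of the 8 genes, followed by Alad (162 TPM) and Alas1 (151 TPM), with Hbb-bt at 45.2 TPM. Hba-a1 and Hba-a2 encode alpha globin, lie at chr11:32283511-32284465 and chr11:32296489-32297298 (mm10, plus strand) and are near-identical copies, so that the split of reads between them is uncertain. Hba-a1 was 297, 270.04 and 258 TPM in untreated WT liver, 623, 262.5 and 552 TPM in untreated LKO liver, 346 to 866 TPM (median 564) in DEN WT nontumour liver, 253, 1372 and 293 TPM in DEN LKO nontumour liver and 224, 417 and 283 TPM in tumours. Hba-a2 was 696, 307 and 335 TPM, then 795, 320.4 and 715 TPM, then 481 to 1751 TPM (median 911), then 343, 1725 and 329.9 TPM, and 299, 519 and 356 TPM in the same order of groups. Hba-a2 gave between 53% and 75% of the alpha globin TPM.

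Hbb-bs and Hbb-bt, the beta globin genes of the single-haplotype strains such as C57BL/6, lie at chr7:103826534-103828096 and chr7:103812524-103813996 (mm10, minus strand) and also share much sequence. Hbb-bs was 513, 96.1 and 76.3 TPM in untreated WT liver, 249, 81.7 and 217 TPM in untreated LKO liver, 75.0 to 1302 TPM (median 559.6) in DEN WT nontumour liver, 72.5, 509 and 120.05 TPM in DEN LKO nontumour liver and 66.5, 181 and 179 TPM in tumours. Hbb-bt was lower throughout, at 11.2 to 189 TPM, and gave between 12.7% and 24.4% of the beta globin TPM. As for alpha globin, DEN LKO nontumour 2 stood above its group, and neither beta globin gene was without overlap in any of the 6 comparisons.

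No globin gene passed in any comparison. In DEN WT nontumour against untreated WT liver the log2 differences were 1.0 ± 0.49 for Hba-a1, 1.03 ± 0.55 for Hba-a2, 1.45 ± 0.83 for Hbb-bs and 1.12 ± 0.74 for Hbb-bt (limma, adjusted p = 1 each). Here 0 of 8 genes and 0% of tested genes passed, with 95 tested genes at an unadjusted p under 0.05. Hba-a1 was the 1 of 8 genes without overlap, against 0.67% of all tested genes. In tumours against DEN WT nontumour liver all 4 were lower in mean, by -0.88 ± 0.49, -1.15 ± 0.55, -1.72 ± 0.83 and -1.56 ± 0.74 in the same order (limma, adjusted p from 0.472 to 0.581). None of the 8 genes was without overlap there, against 3.19% of tested genes. These comparisons share the DEN WT nontumour libraries. In tumours against DEN LKO nontumour liver none of the 8 passed or was without overlap, against 0% and 3.83% of tested genes, with 380 tested genes at an unadjusted p under 0.05.

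Summed over the 4 genes, adult globin was 1581.7, 699 and 694 TPM in untreated WT liver, 1724, 685 and 1538 TPM in untreated LKO liver, 1054 to 3825 TPM (median 2282) in DEN WT nontumour liver, 683, 3741 and 772 TPM in DEN LKO nontumour liver and 601, 1157 and 861 TPM in tumours. The mean log2 level was 1.12 higher in DEN WT nontumour than in untreated WT liver (2.17-fold, 2-sided exact permutation test, p = 0.0714, adjusted over 6 comparisons 0.214). In tumours it was 1.24 lower than in DEN WT nontumour liver on that scale, a fold of 0.424 (2-sided exact permutation test, p = 0.0714, adjusted 0.214). In both, 1 untreated WT library or 1 tumour overlapped with the lowest DEN WT nontumour libraries, and the smallest p possible with 3 against 6 is 0.0119. The other 4 comparisons gave exact permutation p-values from 0.321 to 1. With 3 against 3 libraries the smallest p possible is 0.1.

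The test of tumours against DEN WT nontumour liver changed with the scaling. The p-values that follow are unadjusted. With median-ratio scaling the difference was -1.21 (exact permutation test, p = 0.0119), with TPM rescaled without mitochondrially encoded genes -1.12 (p = 0.0357), and without the 2 low-Ftcd DEN WT libraries -1.67 (p = 0.0286). The difference of DEN WT nontumour from untreated WT liver was 1.12 under both scalings, with exact permutation p = 0.0119 and 0.0357. Single libraries also decided the side of the threshold. The exact permutation p was 0.0357 for tumours against DEN WT nontumour liver without DEN LKO tumour 2 (-1.46), for DEN WT nontumour against untreated WT liver without untreated WT 1 (1.51), and for DEN LKO nontumour against DEN WT nontumour liver without DEN LKO nontumour 2 (-1.45, beside -0.66 with it).

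Alpha and beta globin went together, with r = 0.855 and rho = 0.864 over 18 libraries (permutation test, adjusted p = 2.75e-05 and 7.33e-05), 0.839 without the 2 farthest libraries and 0.827 within the 6 DEN WT nontumour libraries. Summed globin was lower where the mitochondrially encoded share was higher (r = -0.525, rho = -0.6, permutation test, adjusted p = 0.036 and 0.0134) and higher with Alas1 (r = 0.67, rho = 0.684, permutation test, adjusted p = 0.00557 and 0.00493). The ratio of alpha to beta globin was not constant. The summed alpha globin TPM was 1.69, 4.73 and 5.88 times the summed beta globin TPM in untreated WT liver, 4.63, 5.71 and 4.67 times in untreated LKO liver, 1.57 to 10.04 times (median 2.31) in DEN WT nontumour liver, 6.89, 4.81 and 4.19 times in DEN LKO nontumour liver and 6.74, 4.24 and 2.89 times in tumours. In red cell precursors both chains are made in near balance.

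This ratio followed the mitochondrially encoded share, a relation looked at after the values were seen. On the log2 scale r was 0.944 and rho 0.93 over 18 libraries (permutation test, adjusted p = 2.75e-05 and 7.33e-05 over 11 relations), 0.943 without the 2 farthest libraries, 0.951 within the 6 DEN WT nontumour libraries and 0.948 for deviations from group means. The 4 lowest ratios, 1.57 to 1.91, came with shares of 4.2%, 4.33%, 5.6% and 6.47%, and the library with the highest ratio, 10.04, had 38.3%. The part of other properties of these libraries was not tested, and RNA integrity per library is not given in the sources used here beyond the submitters' minimum for all.

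**Figure D3:**
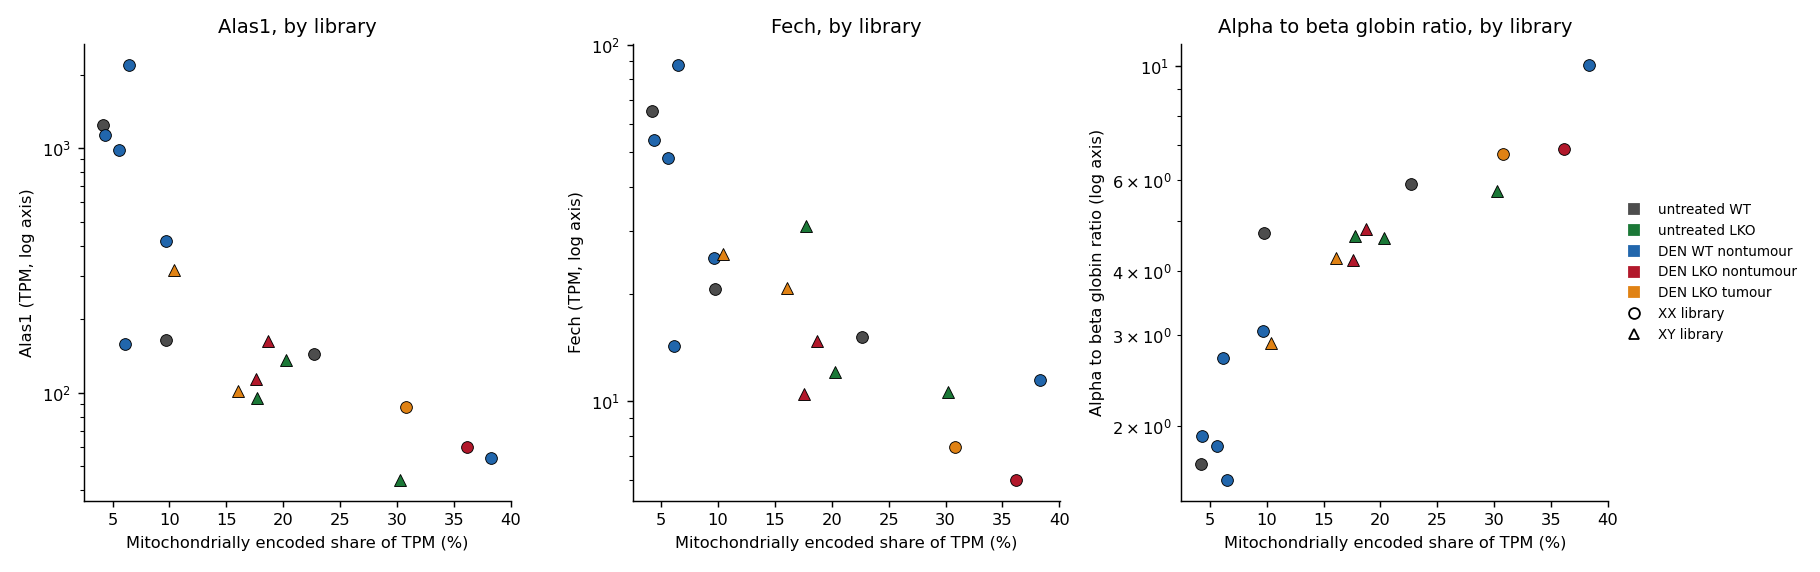
Alas1 and Fech in TPM and the ratio of summed alpha to summed beta globin TPM (each on a log axis) against the mitochondrially encoded share of TPM in percent, 1 point per library, coloured by group, with XX libraries as circles and XY libraries as triangles. Alas1 is highest, at 980.0 to 2192 TPM, in 4 libraries with shares of 4.2% to 6.47%, and the alpha to beta ratio climbs from 1.57 to 10.04 with the share.

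Over all 18 libraries r of Alas2 was 0.32 with summed adult globin (rho 0.488, permutation test, adjusted p = 0.241 and 0.051), -0.211 with Alas1 (rho 0.055, adjusted p = 0.446 and 0.831) and -0.053 with Fech (rho 0.284, adjusted p = 0.834 and 0.28), none of which passed. For deviations from group means r of Alas2 was 0.802 with summed adult globin, 0.356 with Alas1 and 0.348 with Fech, not tested. Because Alas2 fell into separate clusters, these relations were also taken, after the values were seen, within the 14 libraries low in Alas2. There r with summed adult globin was 0.603 and rho 0.635 (permutation test, adjusted p = 0.0301 and 0.0228), 0.514 without the 2 farthest libraries, and within the 6 DEN WT nontumour libraries r was 0.959. Within the same 14 libraries r of Alas2 was 0.525 with Alas1 and 0.547 with Fech (permutation test, adjusted p = 0.0562 and 0.0491), the latter 0.339 without the 2 farthest libraries. In the 4 libraries with high Alas2, summed globin ran from 685 to 3741 TPM, inside the range of 601 to 3825 TPM in the other 14.

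Per 1000 TPM of adult globin, Alas2 was 7.2, 19.1 and 17.0 TPM in untreated WT liver and 95.2, 139 and 80.7 TPM in untreated LKO liver. The groups did not overlap, and the ratio was 7.63-fold higher in the knockouts (2-sided exact permutation test, p = 0.1, the smallest that 3 against 3 allows). It was 5.47 to 12.7 (median 8.06) in DEN WT nontumour liver, 14.5, 24.8 and 13.1 in DEN LKO nontumour liver and 28.0, 16.1 and 22.5 in tumours. Both DEN-treated knockout groups lay above all DEN WT nontumour libraries, by 1.98-fold (exact permutation test, p = 0.0238) and 2.55-fold (p = 0.0119, the smallest possible), each with an adjusted p of 0.0714 over 6 comparisons. Without DEN LKO nontumour 2 the first difference had p = 0.107 (exact permutation test). DEN WT nontumour liver was lower than untreated WT liver by 0.65 on the log2 scale (exact permutation test, p = 0.167), and by 1.09 without untreated WT 1 (p = 0.0357). The globin sum below the line was lower in mean in both DEN-treated knockout groups than in DEN WT nontumour liver, by 0.66 and 1.24 on the log2 scale, and Alas2 itself differed by less than its standard error.

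**Figure D4:**
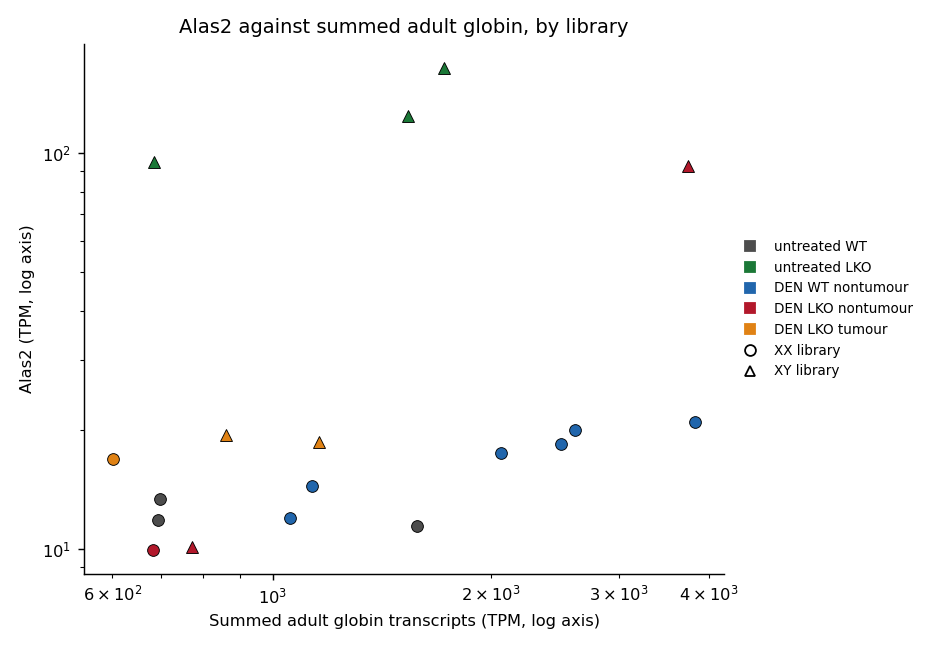
Alas2 against the summed level of the 4 adult globin genes, both in TPM on log axes, 1 point per library, coloured by group, with XX libraries as circles and XY libraries as triangles. The 4 libraries with Alas2 from 92.9 to 164 TPM span globin sums from 685 to 3741 TPM, as the other 14 libraries do.

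The windows before the start sites were read for letters that red cell factors are known to bind. Summed alpha and summed beta globin went together (r = 0.855), though their ratio ranged from 1.57 to 10.04. Alas2 stood far above its other values in 4 libraries. RefSeq promoter windows (GRCm38.p6, the assembly also called mm10) were at hand for 7 of the 8 genes, and the 250 bases before each start were searched on both strands. For 3 genes the stretch outside any GENCODE exon is shown 5′ to 3′ along the gene's strand, with GATAA (the core of GATA factor sites, also as its reverse complement) and CACCC (the core of sites of KLF1 and its relatives, likewise) in capitals: Alas2 at chrX:150547167-150547374 (plus strand), Hba-a2 at chr11:32296242-32296488 (plus strand) and Hbb-bt at chr7:103813997-103814173 (minus strand).
Alas2: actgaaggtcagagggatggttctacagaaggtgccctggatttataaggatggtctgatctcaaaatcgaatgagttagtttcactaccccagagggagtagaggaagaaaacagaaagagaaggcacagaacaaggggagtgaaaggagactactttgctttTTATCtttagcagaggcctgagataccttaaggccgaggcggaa
Hba-a2: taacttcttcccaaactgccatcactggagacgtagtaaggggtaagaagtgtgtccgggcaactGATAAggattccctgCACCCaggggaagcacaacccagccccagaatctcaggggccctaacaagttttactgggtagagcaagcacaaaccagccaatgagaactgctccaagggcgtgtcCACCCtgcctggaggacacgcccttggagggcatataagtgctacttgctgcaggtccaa
Hbb-bt: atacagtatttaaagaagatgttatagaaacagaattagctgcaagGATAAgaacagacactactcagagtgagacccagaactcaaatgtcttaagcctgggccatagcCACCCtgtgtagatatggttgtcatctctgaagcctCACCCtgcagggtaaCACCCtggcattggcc

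In the full 250 bases GATAA was found 1 time each before Alas2, Hba-a1, Hba-a2, Hbb-bs and Hbb-bt and 0 times before Alas1 and Alad, and 22.6% of 32851 windows of the same length hold it. CACCC was found 3 times before Alas2, 2 times before each alpha globin gene, 1 time before Hbb-bs, 3 times before Hbb-bt, 1 time before each start of Alas1 and 1 time before 1 of the 2 starts of Alad, and 52% of windows hold it. The 3 matches before Alas2 lie between 40 and 26 bases before the start, in the part not shown. CCAAT, the core of CCAAT box sites, stood before the 4 globin genes and both starts of Alad, and not before Alas2 or Alas1 (33.8% of windows). GCATGCGC, a core of NRF1 sites, had 2 overlapping matches before 1 of the 2 starts of Alas1 (2.26% of windows). TTCNNNGAA, the STAT5 core, was found 1 time before the other start of Alas1 and not before Alas2 (7.02% of windows). The windows of Hba-a1 and Hba-a2 were identical over all 247 bases compared once shifted by 3 bases. These are matches of letters in a short window, not tested sites.

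Markers of red cells and their precursors were low beside the globins. Of 34 listed, 33 were in the table and 15 were tested, while 16 were under 1 TPM in every library. None passed in any comparison (limma), beside at most 0.497% of all tested genes. Slc4a1, the anion exchanger of the red cell membrane, reached at most 0.28 TPM, and Rhag, Hemgn and the erythroid transcription factor Gata1 at most 0.02, 0.02 and 0.03 TPM. In the library with 164 TPM of Alas2 and in the others, these named markers were thus at or near 0. Others of the list were not, such as Klf1 (0.16 to 5.55 TPM), Car1 (0.29 to 6.19 TPM) and Car2 (0.66 to 9.16 TPM). In the library with 164 TPM of Alas2 these were at 1.16, 3.53 and 1.36 TPM. The summed level of the 33 markers was 94.8 to 215 TPM in untreated WT liver, 50.9 to 123 TPM in untreated LKO liver, 57.7 to 256 TPM in DEN WT nontumour liver, 65.1 to 115 TPM in DEN LKO nontumour liver and 72.2 to 181 TPM in tumours. This sum was not higher in untreated LKO than in untreated WT liver, and how it relates to red cell content was not tested. The most abundant of the list were genes that other liver cells also express: Ube2l6, a ubiquitin-conjugating enzyme (20.4 to 86.2 TPM), Bnip3l, a mitophagy receptor (6.04 to 38.9 TPM), Aqp1, a water channel (1.38 to 43.9 TPM), and Mkrn1, a ubiquitin ligase (4.23 to 17.5 TPM).

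The embryonic globins Hba-x, Hbb-y, Hbb-bh0 and Hbb-bh2 were listed at 0 in all 18 libraries, and Hbb-bh1 reached 0.32 TPM. Cygb, cytoglobin of stellate cells, was the only other globin tested (1.24 to 7.21 TPM) and did not pass. Among the genes most like summed adult globin over the libraries, by Pearson's r, were B430119L08Rik (0.838), Cyp4a31 (0.804), Tceanc2 (0.789) and Chac1 (0.784). Platelet and megakaryocyte genes, which could come with blood, summed to medians of 6.23, 6.91, 6.84, 8.37 and 7.48 TPM in the groups in the order given at the start. The highest sums were 6.5, 13.3, 8.0, 30.7 and 46.9 TPM. None of 4 tested passed. In sign all 4 were higher in DEN LKO nontumour than in DEN WT nontumour liver, with a median of 0.76 beside -0.19 for all tested genes. In tumours against DEN LKO nontumour liver 2 were higher and 2 lower.

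Of the lists for other cells, 5 neutrophil, 8 lymphocyte, 13 Kupffer cell and macrophage, 11 endothelial and 6 cholangiocyte genes were tested. None of these passed in any comparison (limma), beside at most 0.497% of all tested genes. Kupffer cells clear aged red cells, and all 13 of their genes were lower in sign in untreated LKO than in untreated WT liver, with a median of -1.0 beside -0.33 for all tested genes and of -0.58 with median-ratio scaling. The same 13 were all higher in sign in DEN WT nontumour against untreated WT liver (median 0.75) and in DEN LKO nontumour against untreated LKO liver (median 1.6). The 11 endothelial genes were also all lower in sign in untreated LKO than in untreated WT liver, with a median of -0.78. Ddx3y, a Y-linked gene, was the 1 of 4 tested genes for the animals' sex that passed, higher by 3.3 in untreated LKO liver (limma, adjusted p = 0.0227). None of 12 tested mitochondrially encoded genes passed.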

How the data were processed

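RNA sequencing libraries of 18 mouse liver or tumour pieces were compared. Extraction was with TRIzol and library preparation with a TruSeq kit, with a minimum RNA integrity, per the labels' protocols. The values are TPM per gene, deposited by the authors as 1 table; the submitters' processing notes name mm10, fastp, HISAT and RSEM, with roles and settings not given in the sources used here. TPM keep no counts, so depth is unknown and no counting interval was computed. The table held 0 other columns per sample.

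The 8 genes, the gene lists and the tests were chosen with earlier results of these data known. The scale was log2(TPM + 1), and the test covered 13872 genes that reached 1 TPM in 3 or more of 18 libraries. Limma 3.58.1 in R 4.3.3 fitted 5 group means to all libraries with an intensity trend and 13 residual degrees of freedom. The tests were 2-sided, for 6 contrasts and for the interaction of genotype with DEN, each with its own Benjamini-Hochberg adjustment and a threshold of 0.05. The fit was tested on simulated data. Summed globin and Alas2 per globin were compared by 2-sided exact permutation tests, and relations across libraries by 100000 permutations, in scipy 1.17.1 (Python 3.11.15, numpy 2.4.6, pandas 2.3.3), with plots from matplotlib 3.10.9. Named were the 8 genes, other haem synthesis enzymes, Ftcd, every listed gene that passed (otherwise up to 4 of the highest mean TPM per list, left out for lists of other cells), and the 5 genes of highest r. Some genes that this rule names are not reported here. Coordinates are from GENCODE M21 (mm10) and promoters from RefSeq (GRCm38.p6). Scalings, pseudocounts, filters, covariates and left-out libraries were tried as alternatives. In no comparison did all same-numbered libraries deviate together.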

Additional observations from a re-analysis of the deposited data

Results flagged for a closer look

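The ratio of summed alpha to summed beta globin TPM was 10.04 in DEN WT nontumour 1, while the other 5 libraries of that group lay between 1.57 and 3.05. The gap to the nearest library was 0.825 of the group's range, above Dixon's critical value for 6 libraries. The mitochondrially encoded share of the same library was 38.31%, against 4.33% to 9.68% in the other 5, a gap of 0.843 of the range. This library is also 1 of the 3 labelled WT with low Ftcd. In all, 12 quantities were looked at in this group, and chance alone marks about 1 in 20.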

How the results depend on the processing

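Over 747 recomputed values, 698 kept their direction and their side of the threshold, or a count within 1.5 times the original. A result that did not pass and stayed so counts among the 698. Exact permutation tests of 3 against 3 libraries, with a smallest p of 0.1, could not cross the threshold. The total is therefore no measure of how firm the results are. The call of Alas2 between untreated LKO and untreated WT liver kept its direction in every alternative and its call with median-ratio scaling, with quantile normalization, with TPM rescaled without mitochondrially encoded genes, without the filter and with the mitochondrial share in the fit. The number of members past the threshold there was 0 without the 3 low-Ftcd libraries labelled WT, 0 with a term for XX or XY and 0 with a replicate block (difference 3.25, limma, adjusted p = 0.163), and 0 to 1 when single libraries were left out. Without the low-Ftcd libraries it was 2 for DEN LKO nontumour and 1 for tumours against DEN WT nontumour liver. Leaving out single libraries gave 0 to 1 for DEN LKO nontumour against untreated LKO liver and 0 to 1 for the interaction.

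For summed globin, leaving out single libraries gave log2 differences of -1.45 to -0.23 for DEN LKO nontumour against DEN WT nontumour, -1.01 to 0.22 for tumours against DEN LKO nontumour, -1.46 to -0.99 for tumours against DEN WT nontumour, 0.92 to 1.51 for DEN WT nontumour against untreated WT and -0.75 to 0.48 for DEN LKO nontumour against untreated LKO liver. The last was -0.15 with median-ratio scaling, beside 0.04. Tumours against DEN WT nontumour gave -1.21 with median-ratio scaling, -1.12 rescaled without mitochondrially encoded genes and -1.67 without the low-Ftcd libraries. DEN WT nontumour against untreated WT gave 1.12 with both scalings. Each then had an unadjusted p under 0.05 (exact permutation test), and the cause was not tested. For Alas2 per globin, single libraries gave 0.7 to 1.16 for DEN LKO nontumour against DEN WT nontumour and -1.09 to -0.39 for DEN WT nontumour against untreated WT liver.

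Replicate numbers were not taken as pairs, since in no comparison did all 3 correlations of same-numbered deviations exceed 0.1, and in none did every library go best with its own number. For tumours against DEN LKO nontumour liver the correlations were 0.35, 0.3 and -0.03, the first 2 of them best with their own number, and XX or XY matched by number in all 3, so shared mice remain possible there. With the replicate block, Alas2 per globin differed from DEN WT nontumour liver by 0.65 (DEN LKO nontumour) and 1.02 (tumours). Signs of the 3 same-numbered differences were flipped, and p was 0.25 each (exact sign-flip test), the smallest this test can give. The DEN WT nontumour libraries numbered above 3 were not used, and 2 of the 3 used were low in Ftcd. The limma fit with the block used the compared groups alone. Between untreated groups it called 10 of all tested genes, beside 53 in those groups alone without the block and 60 in the main fit.

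Alas2 changed sign where its difference was small: for DEN LKO nontumour against DEN WT nontumour it was -0.25 with a term for XX or XY and -0.7 to 0.85 over left-out libraries, for tumours against DEN LKO nontumour -0.74 to 0.81 over left-out libraries, and for tumours against DEN WT nontumour -0.06 without the low-Ftcd libraries and -0.47 with a term for XX or XY. Between untreated groups, Fech was 0.18 with the mitochondrial share in the fit and Alad 0.03 with median-ratio scaling and 0.03 with quantile normalization. Numbers of all genes called moved by more than 1.5 times in several settings: between untreated groups 94 with median-ratio scaling and 26 with a term for XX or XY, beside 60; for DEN LKO nontumour against DEN WT nontumour 1159 without the low-Ftcd libraries, beside 8; for tumours against DEN WT nontumour 327 with median-ratio scaling, 420 without the low-Ftcd libraries and 3 with the compared groups alone, beside 69; and for DEN LKO nontumour against untreated LKO 189 with a term for XX or XY, beside 9. Depth, which TPM do not keep, limits the precision of low genes by an unknown amount.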
